A study of Mus musculus with 6 samples.

Results

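Genes of MHC class II antigen presentation were followed across 6 one-colour arrays of whole mouse brain, which ask what loss of Pofut1 does in neural progenitor cells. The genes were H2-Aa, H2-Ab1, H2-Eb1, H2-DMa, Cd74 and Ciita. They were taken by name: every probe set whose platform annotation gives 1 of these 6 symbols and no other was used, which found 14 probe sets of 45037 tested, for 6 of 18193 named genes. H2-Aa had 4 probe sets, H2-Ab1 and Ciita 3 each, H2-DMa 2, and H2-Eb1 and Cd74 1 each. Knockout brains (2 arrays) carried Nestin-Cre and 2 floxed copies of Pofut1, NestinCre control brains (2 arrays) carried Nestin-Cre and wild-type Pofut1, and Flox control brains (2 arrays) carried the floxed copies without Cre. All were 2 months old and labelled C57/Bl6. Nestin-Cre acts in neural progenitors and the neurons and glia they form, so it is not directed at microglia, which arise outside the neural lineage. The deletion in brain macrophages was not measured here.

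MHC class II molecules are pairs of an alpha and a beta chain that display peptides from endocytosed proteins to CD4 T cells. Cd74, the invariant chain, escorts new pairs to the endosome, where cathepsins trim it and H2-DM exchanges its last fragment for peptide. The class II transactivator Ciita does not bind DNA itself: it docks on RFX, CREB and NF-Y factors at the X and Y boxes of class II promoters, and interferon gamma is its best known inducer. In healthy brain these genes are expressed mainly by border macrophages, dendritic cells and some microglia.

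The promoters of the alpha chain gene H2-Aa and the beta chain gene H2-Eb1 are shown because class II genes are transcribed through these boxes. The windows run from 250 bases before to 50 bases after the gene start, 5′ to 3′ on the strand of the gene, and come from RefSeq, build GRCm38.p6. H2-Aa is at chr17:34287774-34288073 on the minus strand and H2-Eb1 at chr17:34305617-34305916 on the plus strand. Capitals mark matches to ATTGG (the Y box, an inverted CCAAT, searched on both strands) and to a longer X box pattern that reads AG, 2 free bases, AC, 1 free base and GATG.

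H2-Aa: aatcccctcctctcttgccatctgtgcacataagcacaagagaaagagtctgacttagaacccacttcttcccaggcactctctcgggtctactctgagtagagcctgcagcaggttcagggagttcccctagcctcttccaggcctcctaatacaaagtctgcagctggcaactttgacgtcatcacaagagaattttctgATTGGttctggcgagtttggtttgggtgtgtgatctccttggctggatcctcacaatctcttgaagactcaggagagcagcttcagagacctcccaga
H2-Eb1: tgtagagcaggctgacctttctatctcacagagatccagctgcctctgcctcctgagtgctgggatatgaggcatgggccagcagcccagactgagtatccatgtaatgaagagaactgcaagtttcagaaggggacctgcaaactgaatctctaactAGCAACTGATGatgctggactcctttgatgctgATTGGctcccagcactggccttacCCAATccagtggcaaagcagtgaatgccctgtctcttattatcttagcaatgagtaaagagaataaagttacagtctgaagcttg

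The H2-Aa window held 1 Y box match, 48 bases upstream of the start, and 0 X box matches. In H2-Eb1 the X box match began 92 bases upstream, the forward Y box match 59 bases upstream and a reverse one 35 bases upstream, and none of these matches overlapped. Of 32851 promoter windows of the same length, 37.4% held ATTGG on either strand, 0.968% held the X box pattern and 0.387% held both. Of the 2 H2-DMa windows, 1 held a Y box match, 198 bases upstream, and neither held an X box match. A match describes letters only, and the lack of a match to 1 fixed pattern does not show that a box is absent. In RefSeq's gene order on chromosome 17, the run from H2-DMa to H2-Eb1 held 11 protein-coding genes, and Psmb9, Tap1, Psmb8 and Tap2 of the class I pathway lay between H2-DMa and H2-Ab1.

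Values are intensities on a linear scale, and differences are between group means of log2 intensity, given with the standard error (SE) of the limma fit. A probe set was called at a limma adjusted p under 0.05 over all 45037 probe sets. The lowest value of each array lay between 38.0 and 38.2, and the median of all probe sets was 7.34 on the log2 scale. No detection calls were used here, so a dim probe set may be at background. Array medians ran from 7.32 to 7.36 and replicate arrays correlated at 0.993 to 0.995 across probe sets. Pofut1 was dimmer in knockout, with intensities of 610 and 696 in knockout, 918 and 874 in NestinCre control, and 992 and 899 in Flox control (limma adjusted p = 0.211, log2 difference of -0.50, SE 0.08, against both controls), and where its probe sets lie relative to the deletion is not stated, which limits this check of the labels. All 8 measured brain markers, such as Snap25, Gfap and Mbp, were above the median of all probe sets. By Xist and Eif2s3y, knockout replicate 1 and NestinCre control replicate 2 were male and the other 4 arrays female, so both Flox control arrays were female. The labels do not tie arrays to separate animals. The 2 knockout arrays differ in sex, as do the 2 NestinCre control arrays, so neither pair can come from a single animal. For the Flox control pair this is not known, and its scatter may be technical. A p-value reflects how far these 6 samples scatter.

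Class II genes were lowest in NestinCre control brain, and knockout and Flox control brain overlapped for most of them. For 5 of the 6 genes, all but Ciita, both NestinCre control arrays lay below the 4 other arrays. The same held for 7 of the 14 probe sets, against 5.23% of all probe sets tested, a comparison noticed after the values were seen. Among genes read below, it held for 3 of 9 class I genes, 3 of 8 microglial markers and 3 of 4 pituitary genes. Of 19 other class II pathway genes it held for 1, and of 5 T cell and 4 B cell markers for 0. Low values in NestinCre control were thus not particular to class II genes. No class II probe set was called in any of the 4 comparisons, and in whole brain, fewer cells that carry a transcript and less transcript per cell cannot be told apart.

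**Figure D1:**
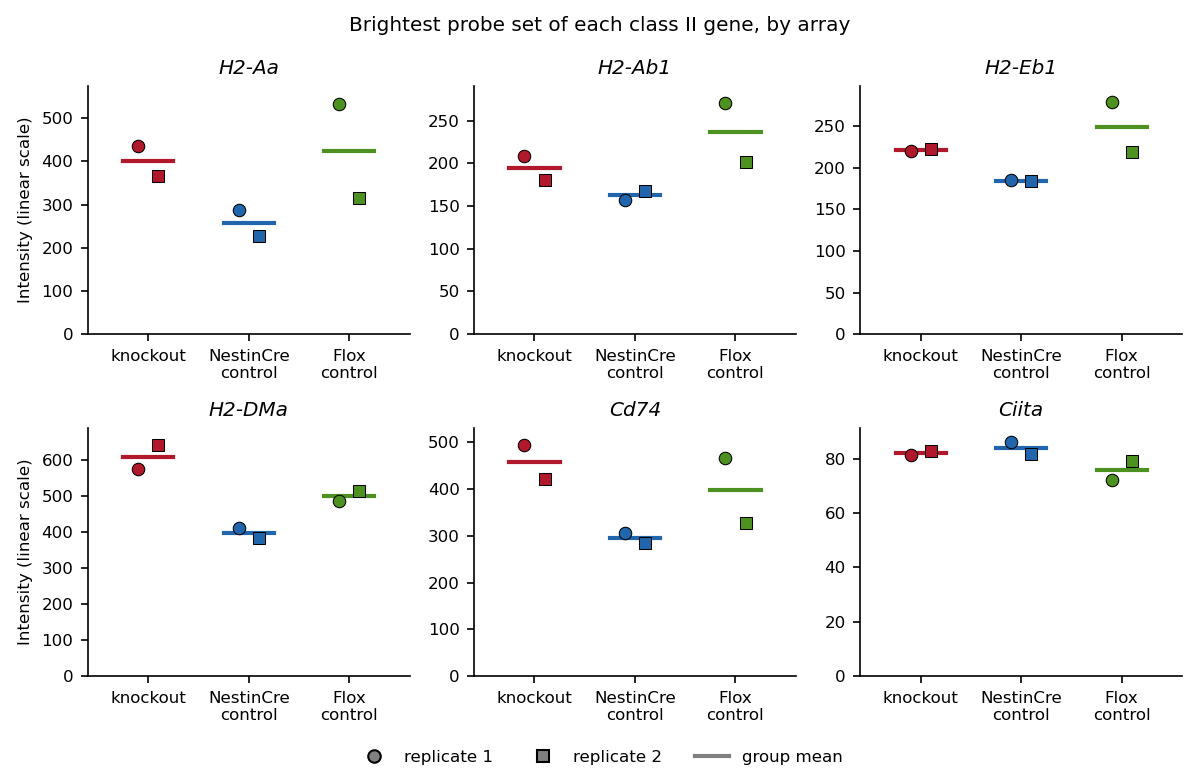
Intensity (linear axis from 0) of the brightest probe set of each of the 6 genes, by group, with circles for replicate 1, squares for replicate 2 and a bar for the mean of 2 arrays. Both NestinCre control arrays sit below the other 4 in every panel but Ciita, and only H2-DMa has both knockout arrays above all 4 controls.

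H2-Aa encodes the alpha chain of the I-A molecule, the class II molecule that C57BL/6 mice display. Its brightest probe set read 436 and 366 in knockout, 288 and 228 in NestinCre control, and 532 and 316 in Flox control. The Flox control arrays enclosed both knockout arrays, while both NestinCre control arrays lay below them. Group means were 401 ± 49.6 in knockout, 258 ± 42.2 in NestinCre control and 424 ± 153 in Flox control (SD, n = 2 each). Knockout and Flox control did not differ beyond their spread.

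Against both controls the H2-Aa log2 difference was 0.30 (SE 0.24, limma adjusted p = 0.736), and leaving out Flox control replicate 1 gave 0.49, leaving out Flox control replicate 2 gave 0.11 and leaving out knockout replicate 1 gave 0.18. Against NestinCre control it was 0.64 (SE 0.28, limma adjusted p = 0.907), and against Flox control it was -0.04 (SE 0.28, limma adjusted p = 0.976). That last value moved with either Flox control array: it became 0.34 without replicate 1 and -0.41 without replicate 2. The second probe set of H2-Aa gave 0.32 (SE 0.18) against NestinCre control and 0.00 (SE 0.18) against Flox control. The remaining pair were dimmer than the median of all probe sets, at a mean of 6.55 and 5.31 on the log2 scale. They differed by 0.02 (SE 0.14) and -0.01 (SE 0.04) against both controls. The names of 7 of the 14 class II probe sets end in _x_at or _s_at, which marks probes that can match other transcripts. All 4 of H2-Aa, the brightest and 1 other of H2-Ab1 and the second of H2-DMa are among them, and their levels are uncertain to that extent.

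The I-A beta chain gene H2-Ab1 read 208 and 181 in knockout, 156 and 168 in NestinCre control, and 271 and 202 in Flox control. The arrays of knockout lay above those of NestinCre control, and 1 of them lay above Flox control replicate 2. The log2 difference was -0.01 (SE 0.14, limma adjusted p = 0.995) against both controls, 0.26 (SE 0.16) against NestinCre control and -0.27 (SE 0.16) against Flox control. Its 2 dimmer probe sets differed by 0.11 (SE 0.08) and 0.09 (SE 0.11) against both controls.

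H2-Eb1, the beta chain of the I-E molecule, read 220 and 223 in knockout, 185 and 184 in NestinCre control, and 280 and 219 in Flox control. Both knockout arrays were close to each other, above NestinCre control and inside the range of Flox control. Its differences were 0.05 (SE 0.11, limma adjusted p = 0.925) against both controls, 0.26 (SE 0.12) against NestinCre control and -0.16 (SE 0.12) against Flox control.

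H2-DMa stood apart in its brightest probe set. This gene encodes the alpha chain of H2-DM, the endosomal editor that loads peptide and is not itself displayed. The intensities were 577 and 644 in knockout, 411 and 383 in NestinCre control, and 487 and 515 in Flox control. Here the 3 groups did not overlap, with knockout above Flox control and Flox control above NestinCre control. Means were 610 ± 47.7 in knockout, 397 ± 19.6 in NestinCre control and 501 ± 20.0 in Flox control (SD, n = 2 each).

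The H2-DMa difference was 0.45 (SE 0.07, 1.37-fold) against both controls, with a limma adjusted p of 0.204, which did not pass. Against NestinCre control it was 0.62 (SE 0.08, limma adjusted p = 0.283) and against Flox control 0.28 (SE 0.08, limma adjusted p = 0.228). The second probe set of the gene, dimmer than the median of all and with the _x_at suffix, did not show this order. It read 116 and 122 in knockout, 105 and 97.4 in NestinCre control, and 143 and 129 in Flox control, so knockout lay between the controls (0.02, SE 0.07, against both).

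The invariant chain gene Cd74 read 495 and 422 in knockout, 306 and 284 in NestinCre control, and 467 and 327 in Flox control. Knockout lay above NestinCre control throughout, while Flox control replicate 1 lay between the knockout arrays. Group means were 459 ± 51.5 in knockout, 295 ± 15.1 in NestinCre control and 397 ± 99.3 in Flox control (SD, n = 2 each). The log2 difference was 0.43 (SE 0.16, limma adjusted p = 0.444) against both controls and 0.63 (SE 0.19, limma adjusted p = 0.735) against NestinCre control. Against Flox control it was 0.23 (SE 0.19, limma adjusted p = 0.630), and it became 0.48 without Flox control replicate 1 and -0.03 without Flox control replicate 2.

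Ciita, the transactivator, was dim on all 3 of its probe sets, each below the median of all. Its brightest read 81.5 and 82.7 in knockout, 86.2 and 81.5 in NestinCre control, and 72.3 and 79.1 in Flox control. Knockout lay inside the range of the 4 controls, and the whole range over 6 arrays was 0.25 on the log2 scale. The 3 probe sets differed by 0.04 (SE 0.06), -0.04 (SE 0.11) and -0.03 (SE 0.06) against both controls, with limma adjusted p between 0.877 and 0.951. With no detection calls, whether these probe sets were above background was not tested.

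**Figure D2:**
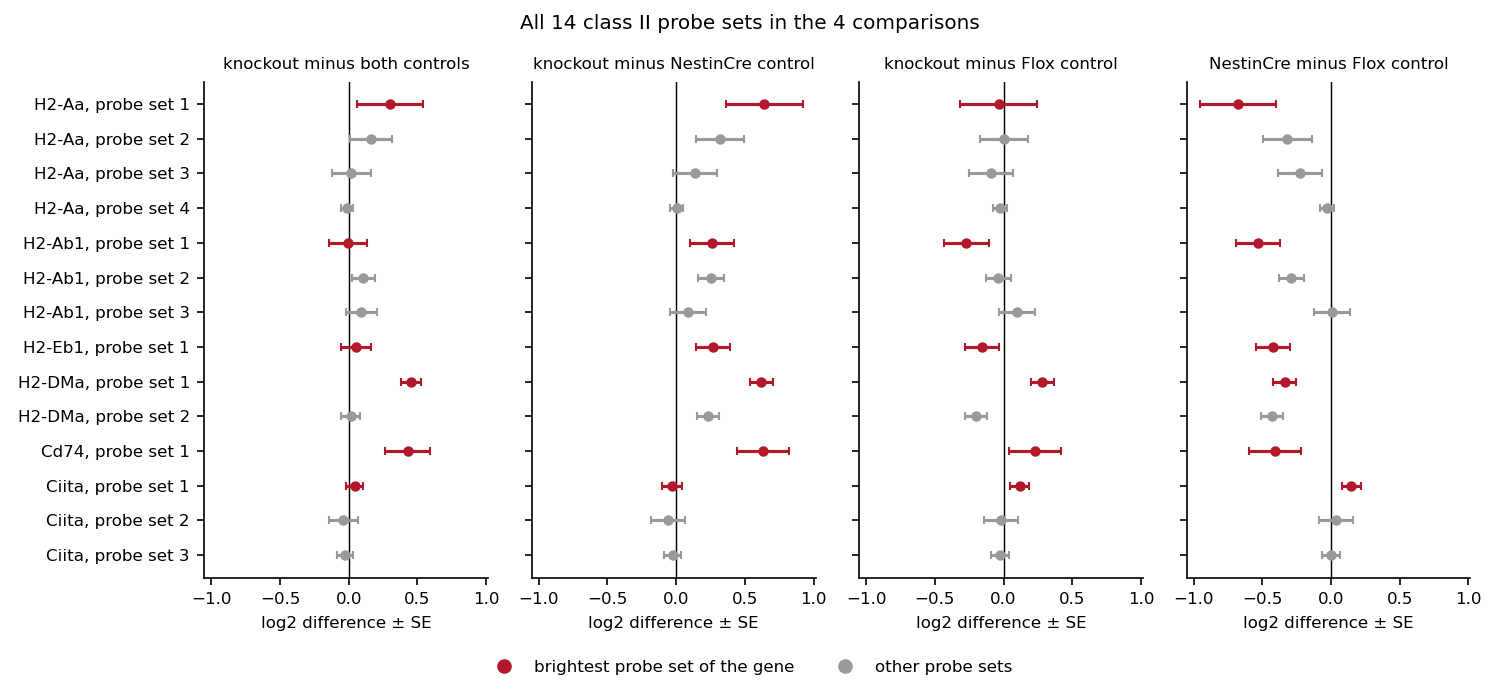
Log2 difference ± SE from the limma fit for all 14 probe sets (rows, numbered by brightness within a gene) in 4 comparisons (panels), with the brightest probe set of each gene in red and the others in grey. Against NestinCre control all 5 brighter genes lie right of 0, whereas against Flox control H2-Aa, H2-Ab1 and H2-Eb1 lie left of it.

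In knockout against both controls, 0 of 14 class II probe sets were called, where 0.0155% of all probe sets were. At an unadjusted p under 0.05, 2 of 14 were higher (the brightest of H2-DMa and the Cd74 probe set), against 6.04% of all, and none was lower. In 1 of 14, that of H2-DMa, both knockout arrays lay above all controls, against 8.77% of all probe sets, which is near the background. The median log2 difference was 0.05 over all 14 and 0.18 over the brightest probe set of each gene, against -0.01 over all probe sets tested.

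Against NestinCre control, which shares Cre and differs in the floxed copies, 0 of 14 were called, as were 0% of all. At an unadjusted p under 0.05, 4 of 14 were higher, against 3.2% of all, and 8 of 14 had no overlap, against 16.4% of all. The median was 0.24 over all 14 and 0.44 over the brightest probe sets, against -0.0008 over all probe sets tested. Within sex, the female knockout array was above the female NestinCre control array by 0.47 for Cd74, 0.65 for H2-DMa and 0.35 for H2-Aa on the log2 scale. The male knockout array was above the male NestinCre control array by 0.80, 0.59 and 0.94 for the same genes. H2-Ab1 and H2-Eb1 were also above in both sexes, by 0.21 to 0.31.

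Against Flox control, which shares the floxed copies and lacks Cre, 0 of 14 were called, where 0.00444% of all were. At an unadjusted p under 0.05, 1 of 14 was higher, against 8.29% of all, and 3 of 14 lay above both Flox control arrays, against 22% of all. These 3 were the brightest of H2-DMa and of Ciita and the third of H2-Ab1. Of the 6 brightest probe sets 3 were above 0 and 3 below, with a median of 0.04. Of all 14, 5 were above 0 and 9 below, with a median of -0.03, against -0.01 over all probe sets tested. The female knockout array alone differed from the mean of the Flox control arrays, both female, by 0.36 for H2-DMa, 0.11 for Cd74 and 0.13 for Ciita. For H2-Aa, H2-Ab1 and H2-Eb1 it differed by -0.16, -0.37 and -0.15.

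Over all 6 arrays the 2 control groups lay farther apart than knockout lay from either for H2-Aa, H2-Ab1 and H2-Eb1. With any 1 array left out this held for H2-Ab1, but for H2-Aa and H2-Eb1 it ended when Flox control replicate 1 was dropped, and for H2-Aa it also ended when knockout replicate 2 was. NestinCre control minus Flox control was -0.68 (SE 0.28) for H2-Aa, -0.53 (SE 0.16) for H2-Ab1, -0.42 (SE 0.12) for H2-Eb1, -0.34 (SE 0.08) for H2-DMa and -0.41 (SE 0.19) for Cd74, with limma adjusted p between 0.382 and 0.541. Ciita differed by 0.15 (SE 0.07). With 1 array left out the difference between the controls ran from -1.05 to -0.30 for H2-Aa, -0.74 to -0.32 for H2-Ab1, -0.60 to -0.25 for H2-Eb1 and -0.67 to -0.15 for Cd74, in each case smallest in size without Flox control replicate 1 and largest without Flox control replicate 2. For H2-DMa it ran from -0.39 to -0.29. None of 14 was called, as were 0% of all, and 5 of 14 were lower at an unadjusted p under 0.05, against 5.22% of all. NestinCre control lay below Flox control without overlap in 8 of 14, against 23.6% of all. The comparisons share arrays, so their values are set side by side and not as independent evidence.

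Replicates of Flox control were less alike than those of the other groups for H2-Aa, Cd74, H2-Ab1 and H2-Eb1. Flox control replicate 1 read 1.68-fold above replicate 2 for H2-Aa, 1.43-fold for Cd74, 1.34-fold for H2-Ab1 and 1.28-fold for H2-Eb1, but 0.945-fold for H2-DMa. After each of the 5 brighter genes was centred on its own mean, the arrays averaged 0.22 and 0.11 in knockout, -0.27 and -0.36 in NestinCre control, and 0.35 and -0.04 in Flox control on the log2 scale. Flox control replicate 1 was the highest array for 3 genes, H2-Aa, H2-Ab1 and H2-Eb1, and each knockout array was highest for 1.

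**Figure D3:**
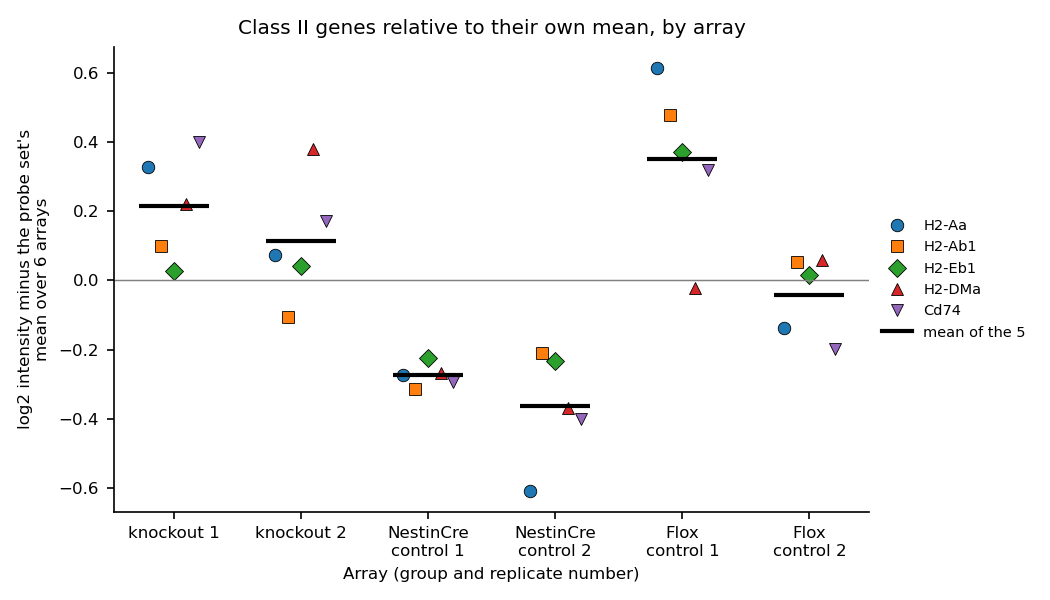
Log2 intensity of 5 class II genes minus each probe set's mean over the 6 arrays (vertical axis), by array (horizontal axis), with the mean of the 5 as a black bar. NestinCre control replicates lie at -0.27 and -0.36 on average and Flox control replicate 1 at 0.35, while H2-DMa is higher in the knockout arrays than in Flox control replicate 1.

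Other genes of the class II pathway were read through the brightest probe set of 19 measured genes. Against both controls 13 were above 0 and 6 below, the median was 0.11, and 0 were called. At an unadjusted p under 0.05, 4 of 19 were higher, against 6.04% of all probe sets, and 0 lower. In 5 of 19 both knockout arrays lay above all controls, against 8.77% of all. The 4 were H2-Ea, Ctss, Ifi30 and Cd86, and the fifth gene without overlap was Rfx5 (0.14, SE 0.08), a subunit of the RFX complex that binds the X box.

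Cathepsin S (Ctss) degrades the invariant chain in antigen-presenting cells. It read 5968 and 5494 in knockout, 4724 and 4443 in NestinCre control, and 4565 and 3866 in Flox control, a difference of 0.38 (SE 0.09, limma adjusted p = 0.273). Knockout was above both control groups, and here NestinCre control was not the lowest. The thiol reductase Ifi30, which unfolds antigens in the lysosome, read 610 and 531 in knockout, 452 and 443 in NestinCre control, and 393 and 460 in Flox control (0.38, SE 0.09, limma adjusted p = 0.297).

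H2-Ea is the alpha chain partner of H2-Eb1, and mice of the b haplotype such as C57BL/6 are known to lack its expression. Its brightest probe set was dim and read 79.9 and 69.0 in knockout, 58.6 and 51.3 in NestinCre control, and 49.7 and 51.8 in Flox control (0.49, SE 0.09, limma adjusted p = 0.227). A second H2-Ea probe set also had both knockout arrays above all controls (0.37, SE 0.09), and the third did not differ beyond its SE (0.02, SE 0.04). Cd86, a costimulatory ligand on antigen-presenting cells, was 0.28 higher (SE 0.09, limma adjusted p = 0.363). The factors on which Ciita docks were all above the median of all probe sets, and none was called. Beside Rfx5, Creb1 was at 0.15 (SE 0.12), Rfxank at -0.08 (SE 0.08), Rfxap at -0.01 (SE 0.06), Nfya at -0.01 (SE 0.09), Nfyb at -0.0023 (SE 0.10) and Nfyc at 0.06 (SE 0.07). H2-DMb2, a beta chain of H2-DM, was at 0.37 (SE 0.17), and H2-Oa and H2-Ob, the inhibitor of H2-DM, were at -0.08 (SE 0.09) and 0.06 (SE 0.06).

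**Figure D4:**
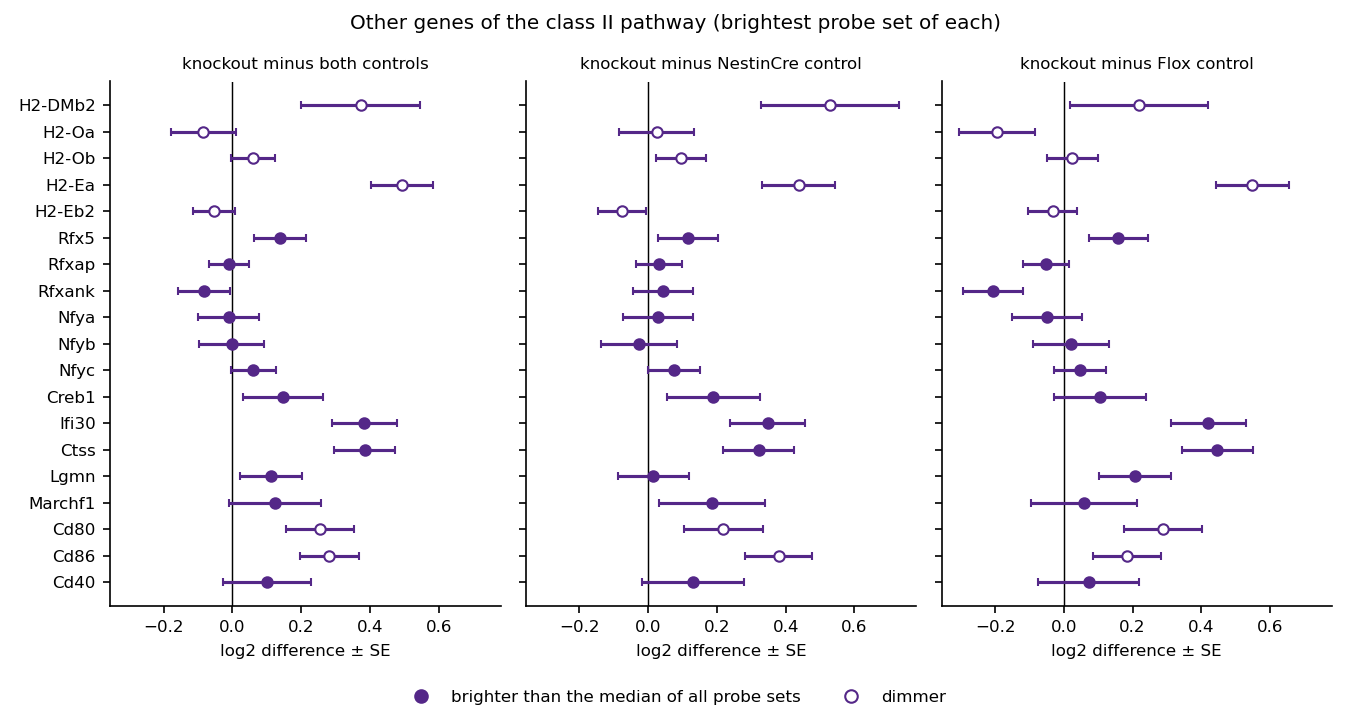
Log2 difference ± SE for 19 other genes of the class II pathway (rows, brightest probe set of each) in knockout against both controls, NestinCre control and Flox control (panels), with open circles for probe sets dimmer than the median of all. H2-Ea, Ctss and Ifi30 lie right of 0 in all 3 panels, while Rfxap, Nfya and Nfyb stay near 0.

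Genes that lead to Ciita induction gave no common direction. Of 8 measured genes of interferon gamma signalling, 3 were above 0 and 5 below against both controls, with a median of -0.02 and 0 called. Ifng was dim at -0.03 (SE 0.05), Irf1 was at -0.02 (SE 0.10), and the kinase genes Jak2 and Jak1 were at 0.18 (SE 0.07) and 0.07 (SE 0.05). Irf8, a myeloid transcription factor, read 129 and 145 in knockout, 98.2 and 102 in NestinCre control, and 98.5 and 102 in Flox control (0.45, SE 0.07, limma adjusted p = 0.183). 

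Class I genes are read beside these because some of them share the region and an inducer with class II. Against both controls 9 of 9 were above 0, with a median of 0.25, and 0 were called. Over all probe sets tested, 21373 of 45037 were above 0. At an unadjusted p under 0.05, 6 of 9 were higher, against 6.04% of all probe sets. Against Flox control 9 of 9 were above 0 as well, where 3 of the 6 class II genes were. The heavy chain gene H2-D1 read 1406 and 1460 in knockout, 847 and 747 in NestinCre control, and 998 and 981 in Flox control (0.69, SE 0.07, limma adjusted p = 0.107). H2-K1 was at 0.72 (SE 0.08, limma adjusted p = 0.125), the immunoproteasome gene Psmb8 at 0.55 (SE 0.06, limma adjusted p = 0.146) and Nlrc5, the class I counterpart of Ciita, at 0.99 (SE 0.13, limma adjusted p = 0.163). For H2-D1, H2-K1 and Psmb8 the groups stood as for the brightest H2-DMa probe set. Knockout lay above Flox control and Flox control above NestinCre control without overlap. This order, noticed after the values were seen, held for 0.744% of all probe sets. Cd86, Aif1, Mrc1, Itgax, Gfap and the dim erythrocyte gene Alas2 also showed it, so it was not particular to MHC genes. NestinCre control minus Flox control was below 0 for 8 of 9 class I genes and above 0 for none. The H2-D1 and H2-K1 probe sets have the _x_at suffix, and whether class I and class II genes differ was not tested.

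Markers of cells that can carry class II, and of T cells, were read from the same arrays, and none was called. Of 8 measured microglial markers 8 were above 0 against both controls. Aif1, which encodes the calcium-binding protein Iba1, read 386 and 397 in knockout, 229 and 225 in NestinCre control, and 242 and 272 in Flox control (0.70, SE 0.06, limma adjusted p = 0.0978). It was the 1 of 8 microglial markers with both knockout arrays above all controls, against 8.77% of all probe sets, which is near the background. Trem2, Cx3cr1 and Sall1 were at 0.30 (SE 0.13), 0.19 (SE 0.11) and 0.19 (SE 0.16). The summed intensity of the 8 was 8594 and 8693 in knockout, 7415 and 7728 in NestinCre control, and 8602 and 7899 in Flox control. Csf1r made up 53.4% to 58.7% of it, and without Csf1r the sums were 3948 and 3926 in knockout, 3074 and 3417 in NestinCre control, and 3554 and 3678 in Flox control. Flox control replicate 1, the array with the highest class II mean, was level with knockout in the sum with Csf1r. Without Csf1r it was below both knockout arrays and Flox control replicate 2. NestinCre control was lowest in both sums. What microglia contribute to the class II values was not tested.

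Border macrophage markers were above 0 for 5 of 7. Mrc1 and Lyve1 were at 0.41 (SE 0.08 and 0.13), F13a1 at 0.44 (SE 0.14) and Cd163 at 0.55 (SE 0.21). In these 4 of 7 both knockout arrays lay above all controls, against 8.77% of all probe sets. The members below 0 were Cbr2 at -0.67 (SE 0.43) and Pf4 at -0.16 (SE 0.07). In these 2 of 7 both knockout arrays lay below all controls, against 9.19% of all probe sets. The sums were 1232 and 1268 in knockout, 996 and 1213 in NestinCre control, and 966 and 1253 in Flox control. Cbr2 read 302 in NestinCre control replicate 2 and 205 in Flox control replicate 2, against 106 to 125 in the other arrays. Without it the sums were 1126 and 1155 in knockout, 880 and 911 in NestinCre control, and 842 and 1048 in Flox control. Flox control replicate 1 was the lowest array in both sums, and its class II mean was the highest. What border macrophages contribute to the class II values was not tested.

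Of 7 measured dendritic cell markers 4 were above 0, with sums of 2316 and 2067 in knockout, 2277 and 2117 in NestinCre control, and 2064 and 2064 in Flox control. Zbtb46 alone made up 75.7% to 77.7% of each, and without it the sums were 533 and 503 in knockout, 508 and 482 in NestinCre control, and 493 and 460 in Flox control. The integrin gene Itgax, shared by dendritic cells and activated microglia, read 84.3 and 78.9 in knockout, 47.9 and 49.4 in NestinCre control, and 50.5 and 53.3 in Flox control (0.70, SE 0.06, limma adjusted p = 0.0890). Xcr1, a receptor of cross-presenting dendritic cells, was dim at 0.10 (SE 0.05). Ccr7 and Cd209a lay near the array floor in every group, at 40.9 to 47.9. Of 4 B cell markers none exceeded the median of all probe sets, and their sums were 255 and 258 in knockout, 267 and 249 in NestinCre control, and 270 and 253 in Flox control. T cell markers summed to 440 and 438 in knockout, 478 and 431 in NestinCre control, and 497 and 527 in Flox control. Of 5 measured, 3 were above 0 and 2 below against both controls. Cd4, the brightest of them, was at -0.29 (SE 0.07, limma adjusted p = 0.304). It read 173 and 193 in knockout, 189 and 192 in NestinCre control, and 248 and 273 in Flox control. Its knockout difference was -0.06 (SE 0.08) from NestinCre control but -0.51 (SE 0.08) from Flox control. The part of these cells in the class II values was not tested.

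Transcripts of other cells and tissues also differed between arrays. In NestinCre control replicate 2 the neutrophil genes S100a8 and S100a9 read 573 and 622, while the other arrays read 72.1 to 94.2 and 98.4 to 126. Ccr2, a receptor of monocytes, was dim at 0.23 (SE 0.09) against both controls. Pituitary hormone genes were higher in both Flox control arrays: Prl read 155 and 765 in Flox control, against 42.1 to 54.7 in the other groups, and Gh read 234 and 676 in Flox control, against 57.1 to 120 in the other groups. Both were higher in replicate 2, the Flox control array with the lower values of H2-Aa, H2-Ab1, H2-Eb1 and Cd74. Choroid plexus markers were below 0 in knockout against both controls for 5 of 5, and 3 of 5 were lower at an unadjusted p under 0.05, against 5.08% of all probe sets, with none called. In these 3 both knockout arrays lay below all controls, against 9.19% of all. Kl was at -0.40 (SE 0.09), Kcnj13 at -0.45 (SE 0.10) and Clic6 at -0.44 (SE 0.11). The choroid plexus sums were 12615 and 12819 in knockout, 14198 and 13164 in NestinCre control, and 13540 and 13352 in Flox control, and most of each sum was Ttr, at -0.04 (SE 0.06). What these transcripts contribute to the class II values was not tested.

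The 5 genes most like the mean of the 5 brighter class II genes over the 6 arrays were 1500011B03Rik (Pearson r = 0.952), Wdfy1 (0.947), A2m (0.940), Nckap1l (0.940) and Gdpd3 (0.934), among 4622 probe sets of adequate brightness and range. These arrays share their groups, and r over 6 arrays is a description. Nckap1l, a subunit of the leukocyte WAVE complex, read 271 and 262 in knockout, 188 and 202 in NestinCre control, and 268 and 231 in Flox control. Gdpd3 read 1312 and 1656 in knockout, 147 and 121 in NestinCre control, and 1525 and 843 in Flox control.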

How the data were processed

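Whole-brain total RNA (25 ng per array) was amplified, labelled with biotin and hybridised to 6 arrays, per the labels' protocols. The authors deposited 1 linear intensity per probe set and array, and GCOS and RMA are named without version or order in the submitters' processing notes. RMA gives arrays a common distribution and compresses differences of dim probe sets. The design had been written for values already in log2, and these intensities were converted to log2 before the fit.

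Of 45101 probe sets, 64 controls were left out. Symbols came from the platform annotation: 34945 probe sets had 1 symbol, 932 several and 9160 none, and 34741 matched RefSeq by Entrez identifier. A mean per group was fitted with limma 3.58.1 in R 4.3.3 (lmFit, eBayes without trend, 3 residual degrees of freedom, 4.94 with the prior), and Benjamini-Hochberg adjustment covered all 45037 probe sets. The fit was tested on simulated data. The text names every probe set of the 6 genes, up to 4 genes of most lists by smallest p against both controls, and the 5 genes most like the class II mean among probe sets above the median with a range of at least 0.5. The genes and lists were chosen with earlier results of these data known. Other genes with values were named after their values were seen. The number of arrays limits the precision. Alternatives changed the normalization, centring, brightness filter, variance trend, arrays in the fit, replicate block, sex, log offset and probe sets per gene, and left out each array in turn.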

Additional observations from a re-analysis of the deposited data

How the results depend on the processing

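Across 16 alternative settings, no class II probe set tested was called in any of the 4 comparisons. All 14 were tested in each but 2 of these: bright probe sets only and 1 probe set per gene tested 6 each. The smallest limma adjusted p of a brightest class II probe set was 0.140, for H2-DMa against both controls with 1 probe set per gene, and over its alternatives that p reached 0.730. Of 374 recomputed differences 154 stayed within 0.001 of the main value, most of them because the setting cannot change a difference of means or leaves out an array of another group. Of the 220 that moved, 9 turned, all of them among the 108 moved by leaving out 1 array. Against both controls H2-Ab1 ran from -0.11 to 0.10 and H2-Eb1 from -0.036 to 0.14. Against NestinCre control Ciita ran from -0.071 to 0.0093. Against Flox control H2-Aa ran from -0.41 to 0.34, H2-Eb1 from -0.34 to 0.019 and Cd74 from -0.032 to 0.48. H2-DMa stayed between 0.37 and 0.53 against both controls, 0.54 and 0.70 against NestinCre control, and 0.20 and 0.36 against Flox control.

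Counts over all probe sets moved more. Against both controls 7 calls became 22 with median centring, 34 with bright probe sets only, 135 with an intensity trend, 34 with 1 probe set per gene and 0 with the replicate block, with sex as a covariate or with female arrays alone, and 0 to 1 with 1 array left out. Against NestinCre control 0 calls became 9, 11, 39 and 10 in the first 4 of these, 1 with only the groups compared, and 0 to 1 with 1 array left out. Against Flox control 2 calls became 9, 23, 162 and 20, and 0 with repeated quantile normalization, only the groups compared, the replicate block, sex as a covariate, female arrays alone, an offset of 16 or any 1 array left out. Between the controls 0 calls became 1 with an intensity trend and 0 to 2 with 1 array left out. The causes were not tested. Same-numbered arrays did not deviate together in every pair of groups (correlations of -0.31, -0.24 and 0.19), so they share only a number. With both controls compared, the groups in the fit are those of the main setting. With no detection calls, dim probe sets, Ciita among them, may be at background.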
